A study of Mus musculus with 6 samples.

Results

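The insulin receptor family and its adaptors were followed in the AtT-20 iPAM line, corticotrope tumour cells of the mouse pituitary with a doxycycline-inducible PAM, peptidylglycine alpha-amidating monooxygenase, which amidates peptides in secretory granules. The 3 induced libraries came from cells given 4 micrograms per ml of doxycycline for 48 h, and the 3 basal libraries from cells at the basal PAM level, for which no doxycycline is stated. All cells were grown in serum-containing medium with G418 and hygromycin, and AmpliSeq amplicon libraries were sequenced to a stated 16.6 M reads each. Neither the promoter of the inducible copy nor whether the line is 1 clone is given, and doxycycline and raised PAM cannot be told apart. No label states that the replicates were separate cultures, so intervals and p-values measure the spread between libraries, which may be technical.

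The family held 8 of the 23349 genes in the deposited table, found by symbol: the receptors Insrr, Insr, Igf1r and Igf2r, the substrates Irs1 and Irs2, and the adaptors Grb10 and Grb14. It was chosen by kinship around Insrr, on the measured induced-minus-basal difference that had placed Insrr among the genes highest in induced cells. The differences of the members in that contrast are therefore given as a description, with intervals and without p-values. Levels are TPM, transcript abundances scaled to a total of 1000000 per library, and are compared within a gene and not between genes, because amplicon reads do not follow transcript length. In bulk samples fewer cells of a type and less RNA per cell cannot be told apart.

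Insulin and the insulin-like growth factors bind receptor tyrosine kinases (Insr and Igf1r), which phosphorylate docking proteins of the Irs family. These recruit PI 3-kinase, which activates Akt, and Akt holds FoxO transcription factors out of the nucleus. Insrr is an orphan member of the same family that responds to alkaline pH outside the cell and is best known from kidney and pancreatic islet. Igf2r is not a kinase: it removes the growth factor IGF2 from the cell surface and carries enzymes tagged with mannose 6-phosphate to lysosomes. Grb10 and Grb14 bind the activated receptors and hold their kinase back.

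Insrr and Grb14 stood apart in opposite directions, and the insulin receptor itself differed little. Insrr was 3.0-fold higher in induced than in basal cells, and Grb14 was 2.14-fold lower. Irs2 was 1.44-fold lower and Grb10, at a very low level, 2.44-fold lower, both with groups that did not overlap. Insr, Igf2r and Irs1 had overlapping groups, and Igf1r was listed at 0 in all 6 libraries.

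**Figure D1:**
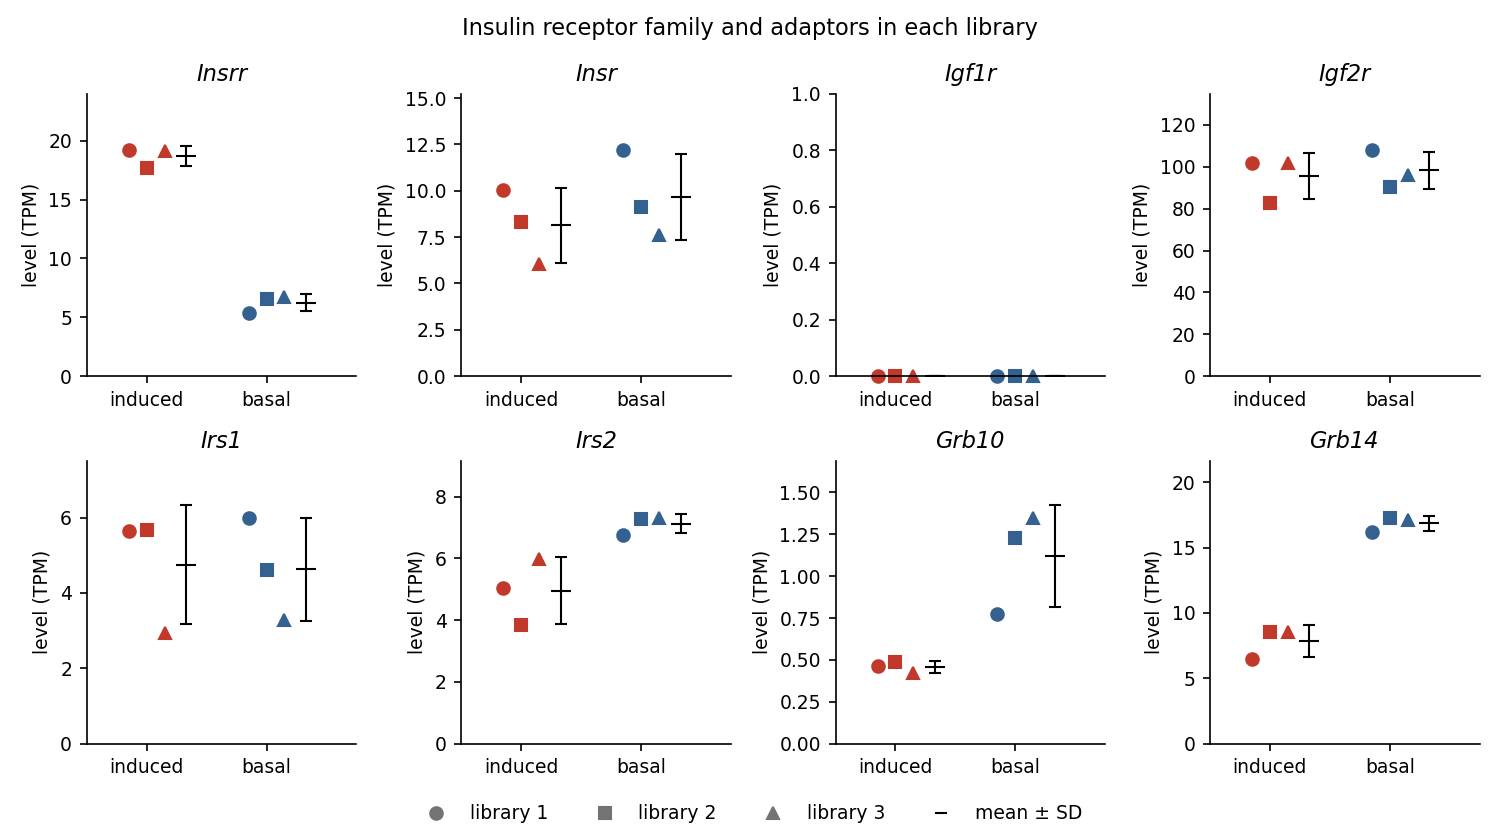
Level (TPM, linear axis from 0) of each member in the 3 induced (left, red) and 3 basal (right, blue) libraries, with mean and SD; marker shape gives the number in the library's column name. Insrr lies at 17.7 to 19.2 TPM in induced libraries against 5.39 to 6.74 TPM in basal ones, and Grb14 at 6.47 to 8.56 TPM against 16.2 to 17.3 TPM.

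Insrr, the alkali-sensing receptor (chr3:87796951-87816101, plus strand), stood at 19.2, 17.7 and 19.1 TPM in induced libraries 1 to 3, against 5.39, 6.54 and 6.74 TPM in basal libraries 1 to 3. Every induced library was above every basal one, and the induced libraries lay close together. The means were 18.6 ± 0.829 TPM in induced cells and 6.23 ± 0.727 TPM in basal cells (SD, n = 3 each). The log2(TPM + 1) difference was 1.45 (SE 0.15, 95% interval 1.10 to 1.80). Libraries with the same number gave induced-to-basal ratios of 3.55, 2.70 and 2.83. Pam itself stood at 507, 399 and 258 TPM in induced libraries 1 to 3, against 92.6, 82.8 and 66.9 TPM in basal ones (exact two-sided permutation test, p = 0.1, the smallest that 3 against 3 can give). Induced libraries thus differed more in Pam than in Insrr, whose range was 7.87% of its mean there. Among the 12400 genes tested, Insrr had the 23rd highest log2 difference.

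Insr, the insulin receptor (chr8:3122061-3279617, minus strand), stood at 10.04, 8.30 and 6.05 TPM in induced libraries, against 12.2, 9.15 and 7.64 TPM in basal libraries. The groups overlapped, and in both groups library 1 was highest and library 3 lowest. The log2 difference was -0.23 (SE 0.24, 95% interval -0.79 to 0.33), so a change of the size seen for Insrr lies outside this interval. With the column number as a block the interval narrowed to -0.49 to 0.04. Igf1r, the main receptor of insulin-like growth factors (chr7:67952827-68233668, plus strand), was listed at 0 in every library and is not described further. The table keeps no counts, so no upper limit for Igf1r can be given.

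Igf2r, the mannose 6-phosphate receptor that clears IGF2 (chr17:12682406-12769664, minus strand), stood at 102, 82.7 and 102 TPM in induced libraries, against 108, 90.4 and 96.3 TPM in basal libraries. The means were 95.6 ± 11.1 TPM in induced cells and 98.1 ± 8.76 TPM in basal cells (SD, n = 3 each), less than either SD apart. Its log2 difference was -0.04 (SE 0.15, 95% interval -0.38 to 0.30).

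Of the docking substrates, Irs1 had overlapping groups and Irs2 groups that did not overlap. Irs1 (chr1:82233101-82291416, minus strand) stood at 5.65, 5.67 and 2.93 TPM in induced libraries, against 6.00, 4.62 and 3.27 TPM in basal libraries. Library 3 was the lowest of both groups, and the log2 difference was 0.02 (SE 0.28, 95% interval -0.65 to 0.69). Irs2, the substrate whose gene FoxO factors are known to switch on in liver (chr8:10984681-11008458, minus strand), stood at 5.03, 3.85 and 5.99 TPM in induced libraries, against 6.77, 7.26 and 7.32 TPM in basal libraries. All induced values lay below all basal ones, and the induced libraries were the more scattered. The log2 difference of Irs2 was -0.46 (SE 0.18, 95% interval -0.89 to -0.03).

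Grb14, the adaptor that blocks the kinase site of the active insulin receptor (chr2:64912476-65024987, minus strand), stood at 6.47, 8.56 and 8.54 TPM in induced libraries, against 16.2, 17.3 and 17.1 TPM in basal libraries. The groups were far apart, and induced library 1 was the lowest. The means were 7.86 ± 1.20 TPM in induced cells and 16.8 ± 0.572 TPM in basal cells (SD, n = 3 each). The log2 difference was -1.02 (SE 0.16, 95% interval -1.40 to -0.64), and same-numbered libraries gave induced-to-basal ratios of 0.400, 0.495 and 0.501. Grb10, an imprinted adaptor of related function (chr11:11930508-12038683, minus strand), stood at 0.464, 0.488 and 0.421 TPM in induced libraries, against 0.774, 1.23 and 1.35 TPM in basal libraries. It lay on the same side as Grb14, but its mean over all libraries was under the 1 TPM needed to enter the test. Without that filter its log2(TPM + 1) difference was -0.53 (SE 0.12, 95% interval -0.82 to -0.24), a scale that shrinks changes of so low a gene.

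**Figure D2:**
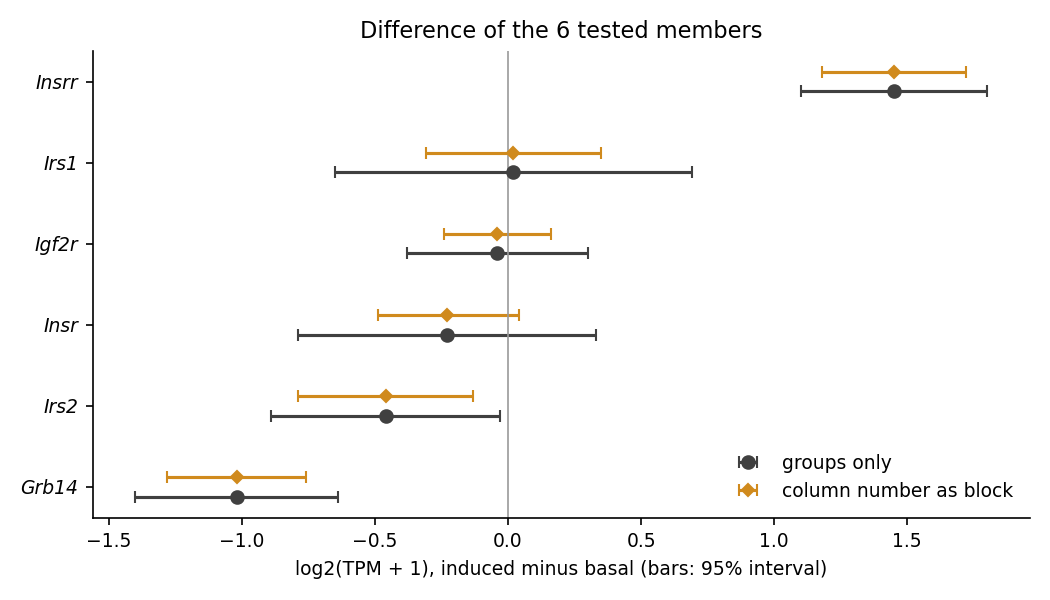
Log2(TPM + 1) difference, induced minus basal, of the 6 tested members with 95% intervals (horizontal bars), from the fit on groups alone (dark circles) and with the column number as a block (orange diamonds). Insrr at 1.45 and Grb14 at -1.02 lie outside the range of the other 4, whose estimates run from -0.46 to 0.02.

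Of 12400 genes tested, 148 were called by limma (adjusted p under 0.05), 1.19% of those tested, 0.129% higher (16) and 1.06% lower (132) in induced cells. Quantile normalization turned that split to 28 higher and 93 lower, and the offset of the authors' deposited table from DESeq2, taken up with the authors' tables, to 2269 higher and 124 lower. Of the 6 members that passed the filter, 2 were called, Insrr higher and Grb14 lower. With the column number as a block 22.3% of all genes were called, 8.23% higher and 14.0% lower, and the members called were again these 2. Groups did not overlap for 3 of the 6 members, Insrr, Irs2 and Grb14, against 21.6% of all genes tested. Since this contrast led to the choice of the family, nothing is read from these counts. Leaving out any single library other than induced 3 ended both calls, while the log2 difference of Insrr stayed between 1.36 and 1.50 and that of Grb14 between -1.08 and -0.90.

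The authors' deposited tables hold the same 2 members. The authors' deposited table from Cuffdiff gives Insrr 9.55 FPKM in induced and 3.16 FPKM in basal cells, a log2 change of 1.60. The same authors' deposited table gives Grb14 4.04 FPKM in induced and 8.50 FPKM in basal cells, a log2 change of -1.08. The authors' deposited table from limma gives log2 changes of 1.45 for Insrr and -1.02 for Grb14, and the authors' deposited table from DESeq2 lists Insrr at 2.11 and not Grb14. Of the members, Insrr alone is on the authors' deposited core list. Over its 195 genes the authors' deposited table from DESeq2 ran a median of 0.42 above the log2 ratios of mean TPM, taken without a pseudocount. Adding that offset to the log2(TPM + 1) values of induced libraries took the median of all genes to 0.39 in place of -0.04. Insrr then came to 1.87 and Grb14 to -0.60, whereas Irs2 came to -0.04 and Insr and Igf2r turned positive, at 0.20 and 0.38.

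Insr and Irs1 were low in library 3 and high in library 1 of both groups. Insr deviated from its group mean by 0.30, 0.05 and -0.35 on the log2 scale in induced libraries 1 to 3, and by 0.33, -0.05 and -0.28 in basal libraries 1 to 3. Irs1 deviated by 0.25, 0.25 and -0.51 in induced libraries and by 0.34, 0.03 and -0.37 in basal libraries. Insrr did not follow that order, with 0.04, -0.07 and 0.03 in induced and -0.17, 0.07 and 0.10 in basal libraries. Over all tested genes, deviations of same-numbered libraries correlated at 0.461, 0.182 and 0.717 for numbers 1, 2 and 3. Libraries with unlike numbers correlated at -0.609 to 0.322, the highest being induced 2 with basal 1, above the value for number 2.

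**Figure D3:**
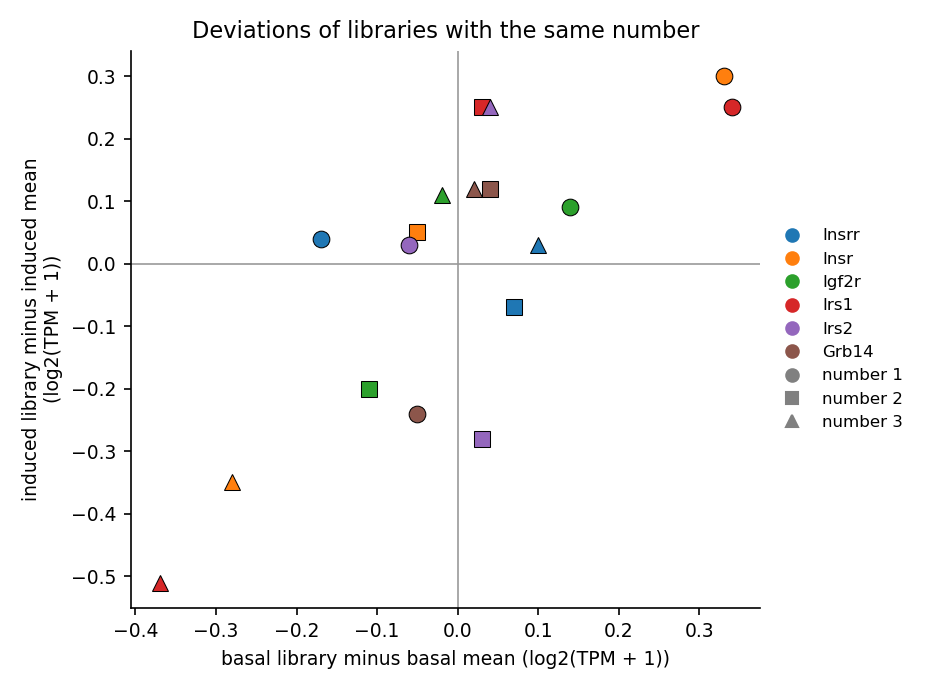
Deviation of each induced library from the induced mean (vertical axis) against that of the basal library with the same number from the basal mean (horizontal axis), in log2(TPM + 1), for the 6 tested members (colours) and the 3 numbers (marker shapes). Insr and Irs1 spread from lower left to upper right, from -0.35 and -0.51 in induced library 3 to 0.30 and 0.25 in induced library 1, and Insrr stays near the centre.

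Coordinates are those of mm10. Around Insrr, 4 tested genes with a part within 100 kb, Arhgef11, Lrrc71, Prcc and Hdgf, had log2 differences between -0.11 and 0.20, and none of them was called with or without the block. Pear1, annotated on the opposite strand across the whole of Insrr, was at 0.430 to 0.746 TPM in induced and 0.570 to 0.998 TPM in basal libraries. The sources do not say whether reads were counted by strand, and a share of such reads in Insrr was not tested.

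Beside Grb14 the neighbour Cobll1, chosen after its value was seen and a relative of the actin regulator Cobl, stood at 14.2, 10.7 and 9.33 TPM in induced libraries, against 21.4, 15.7 and 13.0 TPM in basal libraries. These groups overlapped, and the log2 difference was -0.50 (SE 0.23; limma adjusted p = 0.379), although Cobll1 was called lower with the block. Igf2r overlaps the antisense RNA Airn, which was listed at 0, and Irs2 overlaps 9530052E02Rik, at a mean of 0.0807 TPM.

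The genes whose levels ran most like those of Insrr over the 6 libraries were Kcnk16, Rab37, Psmd6, Limd2 and Wdr73, with Pearson correlations of 0.994 to 0.997 on log2(TPM + 1). All 6 libraries share the group contrast, so these values are a description. Kcnk16, a background potassium channel of pancreatic islets, stood at 6.84, 6.34 and 7.42 TPM in induced libraries, against 1.01, 1.12 and 1.46 TPM in basal libraries. Rab37, a small GTPase of secretory vesicles, stood at 9.13, 8.35 and 9.21 TPM in induced libraries, against 4.73, 4.95 and 5.21 TPM in basal libraries. The proteasome subunit Psmd6 stood at 134, 129.7 and 136 TPM in induced libraries, against 95.5, 103 and 101 TPM in basal libraries. Limd2 and Wdr73 had smaller log2 differences, 0.48 and 0.34, with groups that did not overlap.

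Since Insrr and Kcnk16 are both known from islets, islet markers were examined: 6 of 8, among them Ins1, Ins2, Gcg and Pdx1, were listed at 0 in every library, and the summed level of the list was 0 to 0.581 TPM in induced and 0 to 2.2 TPM in basal libraries. The 8 corticotrope markers, led by Pomc and Tbx19 and all well above 0 but Avpr1b, summed to 21601 to 30519 TPM in induced and 23187 to 32149 TPM in basal libraries. Markers of other pituitary hormone cells summed to 2.38 to 3.43 TPM in induced and 3.16 to 4.71 TPM in basal libraries. Most of this was Ghrhr, at 1.52 to 3.09 TPM over all libraries, with Tshb, Fshb, Pou1f1 and Gnrhr at 0. Markers of melanotropes summed to 1.88 to 2.97 TPM in induced and 2.59 to 3.25 TPM in basal libraries, mostly Pax7, with Drd2 at 0. Markers of fibroblasts, endothelium and blood summed to 1.76 to 2.18 TPM in induced and 3.43 to 4.80 TPM in basal libraries, mostly Col1a1 and Pecam1, with Pdgfra, Cdh5 and Hbb-b1 at 0. The last list moved with the groups, and its part in the results was not tested.

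Around the receptors, 8 lists held other genes of the pathway and, for comparison, acid-base genes and other receptor tyrosine kinases. Few of their genes were called in the fit on groups alone, and those called were lower in induced cells. On the offset scale of the authors' deposited table from DESeq2, which adds 0.42 to every gene in induced libraries, 19 of 131 were called higher and 2 lower. On that scale 2269 of all 12400 genes were called higher and 124 lower. Over the 8 lists, 4 of 131 tested genes were called (limma), 0 higher and 4 lower, or 3.05% against 1.19% of all genes. Of these 4, 1 was an inhibitor of the pathway, 2 were acid-base genes and 1 was a receptor tyrosine kinase. With the block 4 were called higher and 31 lower, 26.7% against 22.3% of all genes. Groups did not overlap for 30 of the 131, or 22.9%, against 21.6% of all genes. Every call made without the block ended when any single library other than induced 3 was left out.

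Ligands and their binding proteins were mostly near or at 0. Of 13 genes 3 were tested and 0 called; Ins1, Ins2, Igfbp1 and Igfbp3 were listed at 0, and Igf1 and Igf2 did not exceed 0.0326 TPM in any library. Igfbp5, a binding protein that holds insulin-like growth factors near the cell, stood at 98.9, 71.8 and 77.8 TPM in induced libraries, against 109, 112 and 117 TPM in basal libraries (log2 difference -0.45, SE 0.15; limma adjusted p = 0.226), and was called lower with the block (0.0203; 0.194 to 0.900 over 14 other settings). Igfals, which stabilises circulating growth factor complexes, had a log2 difference of 0.25 (SE 0.17; limma adjusted p = 0.571). Over 14 other settings the limma adjusted p of Igfals ran from 0.0363 to 0.869.

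Inhibitors of the pathway held 1 call among 17 tested, 5.88% against 1.06% of all genes called lower. Ptprf, a receptor phosphatase known to act on the insulin receptor, fell to 14.0, 11.7 and 13.6 TPM in induced libraries, against 23.9, 26.9 and 25.5 TPM in basal libraries. The groups were well separated (log2 difference -0.91, SE 0.14; limma adjusted p = 0.0440). With the block 5 of 17 tested inhibitors were called lower and 0 higher, 29.4% against 14.0% of all genes called lower. The other 4, named after their values were seen, were the lipid phosphatase Inpp5d, the cytokine-signalling suppressors Socs1 and Socs3, and the PI 3-kinase inhibitor Pik3ip1. Socs1 had the lowest log2 difference of these, -1.43 (SE 0.30), at 1.70, 1.22 and 1.72 TPM in induced and 7.36, 8.03 and 3.27 TPM in basal libraries. The median over the 17 inhibitors was -0.08, close to the -0.04 of all genes.

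Docking and adaptor proteins outside the family held 0 calls among 24 tested, with a median log2 difference of -0.16. Dok4 and Sh2b2, both adaptors that bind the insulin receptor, had the smallest p, with log2 differences of -0.58 (SE 0.18; limma adjusted p = 0.188) and -0.55 (SE 0.19; limma adjusted p = 0.222). With the block 4 were called lower and 0 higher, 16.7% against 14.0% of all genes: these 2 and, among others, Cbl, named after its value was seen.

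All 32 genes of the PI 3-kinase, Akt, mTOR and FoxO arm were tested, and 0 were called. Their median log2 difference was -0.03. Rictor, the scaffold of mTOR complex 2, stood at 12.1, 9.39 and 6.17 TPM in induced libraries, against 20.1, 16.5 and 11.4 TPM in basal libraries. Its groups overlapped, yet within each number the induced library was the lower one (log2 difference -0.75, SE 0.29; limma adjusted p = 0.283, and 0.00214 with the block; 0.0728 to 0.642 over 14 other settings). Foxo3, a transcription factor that Akt restrains, averaged 21.9 ± 5.25 TPM in induced and 31.2 ± 0.940 TPM in basal cells (SD, n = 3 each; limma adjusted p = 0.285). With the block 4 genes were called lower (among them Rictor, Foxo3 and, named after its value was seen, Pdpk1) and 1 higher (Pik3r2, likewise); those lower were 12.5% of the arm, against 14.0% of all genes.

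FoxO target genes had the lowest median of the 8 lists, -0.63 over 11 tested genes, 9 of them negative, and 0 were called without the block. With the block 7 were called lower and 0 higher, 63.6% against 14.0% of all genes. Fbxo32, a ubiquitin ligase of muscle wasting, stood at 17.5, 15.1 and 12.3 TPM in induced libraries, against 43.5, 25.0 and 24.3 TPM in basal libraries (limma adjusted p = 0.139, and 0.00133 with the block; 0.0436 to 0.344 over 14 other settings). Ccng2, an atypical cyclin of resting cells, stood at 46.4, 42.8 and 23.3 TPM in induced libraries, against 94.3, 81.3 and 53.4 TPM in basal libraries (limma adjusted p = 0.183, and 2.8e-04 with the block; 0.00583 to 0.531 over 14 other settings). For both genes every induced library was below every basal one. Several genes of this list are also targets of other factors, such as Gadd45a of p53. On the scale of the authors' deposited table from DESeq2 the list median was -0.21, against 0.39 for all genes. Without that offset it was -0.63, against -0.04 for all genes.

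Genes that process the receptors or tag cargo for Igf2r held 0 calls among 10 tested, with a median of -0.03. Furin, the protease that cuts the insulin proreceptor, had a log2 difference of -0.40 (SE 0.13; limma adjusted p = 0.199) and was the 1 gene called with the block, as lower. Nagpa, which completes the mannose 6-phosphate tag, had a log2 difference of 0.32 (SE 0.18; limma adjusted p = 0.490). Over 14 other settings the limma adjusted p of Nagpa ran from 0.0345 to 0.735.

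Because Insrr responds to alkaline pH, acid-base transporters and carbonic anhydrases were listed too. Of 38 genes 17 were tested, 2 were called lower (11.8%, against 1.06% of all genes) and 0 higher, and the median was -0.16. Slc9a5, a sodium-proton exchanger, fell to 3.01, 4.30 and 3.22 TPM in induced libraries, against 8.07, 10.3 and 8.36 TPM in basal libraries (log2 difference -1.14, SE 0.18; limma adjusted p = 0.0447). Car9, a carbonic anhydrase of the cell surface, fell to 40.5, 34.7 and 38.1 TPM in induced libraries, against 75.8, 62.6 and 68.4 TPM in basal libraries (log2 difference -0.85, SE 0.14; limma adjusted p = 0.0470). Neither pair of groups overlapped. With the block 3 were called lower and 0 higher, 17.6% against 14.0% of all genes called lower. These were Slc9a5, Car9 and the bicarbonate transporter Slc4a5, the last named after its value was seen. Groups did not overlap for 23.5% of the 17 tested, against 21.6% of all genes.

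Among receptor tyrosine kinases as a class, Insrr had the highest log2 difference of the 19 tested with Insr included, 8 of which were positive; this too describes the contrast that led to its choice. The next highest was that of Ddr2, a collagen receptor, at 0.54. Of the 17 outside the family 1 was called: Fgfr3, a fibroblast growth factor receptor, fell to 1.36, 1.15 and 1.02 TPM in induced libraries, against 3.68, 4.12 and 3.30 TPM in basal libraries (log2 difference -1.11, SE 0.16; limma adjusted p = 0.0369). With the block 6 were called lower, 35.3% against 14.0% of all genes, and 3 of the 17 higher, against 8.23% of all genes. Both directions together made 52.9%, against 22.3% of all genes. Those higher included Ddr2 and Epha5, named after their values were seen. Egfr, Met, Kdr and Pdgfra were, like Igf1r, listed at 0 throughout.

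**Figure D4:**
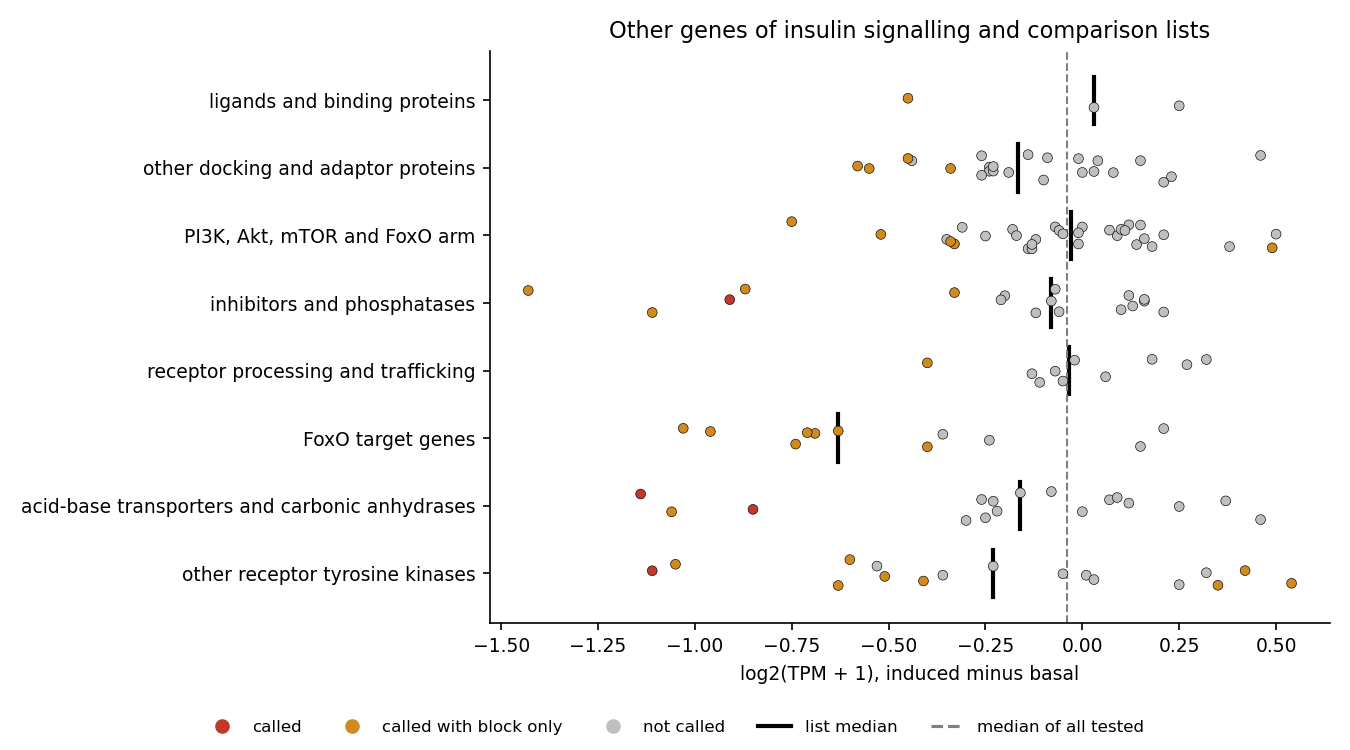
Log2(TPM + 1) difference, induced minus basal, of every tested gene in the 8 lists; red points were called by limma, orange points only with the column number as a block, and vertical spread is for legibility. Black bars give list medians, from -0.63 (FoxO targets) to 0.03 (ligands and binding proteins), beside the median of all tested genes at -0.04 (dashed).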

How the data were processed

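The submitters' processing notes name mm10 and, without their settings, Bowtie2 (2.1.0.0), TopHat2 (2.0.9), Cufflinks and Cuffdiff (both 2.2.0), limma and DESeq2 as tools of the authors. The sheet of all genes carries the word FPKM, but in the deposited values each library sums to 1000000, so they are TPM and hold no depth. The deposited tables of comparisons, per the file headers, give FPKM, log2 changes, a p-value or q-value and, for limma, a B score; an "FPKM mean" was not used.

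Columns name the group and a number, so they were matched to groups only. On the log2(TPM + 1) scale, the 12400 of 23349 genes that averaged 1 TPM or more were tested in limma 3.58.1 under R 4.3.3 (mean-variance trend, Benjamini-Hochberg over all genes, threshold 0.05). The test was checked on simulated data with independent errors, a setting that leaves out the correlated deviations of these libraries. Deviations of same-numbered columns correlated positively (0.461, 0.182 and 0.717), although the labels give no such link. For number 2 this was not particular to the number: induced 2 correlated more with basal 1 (0.322), and induced 1 with basal 2 gave 0.284. The fit with the number as a block is given beside the main fit where it changes a count, and whether the numbers pair libraries is not known. Members, lists and tests were chosen with earlier results of these data known. Named genes are the members, Pam, in each list up to 3 called per direction or else the 2 with the smallest p, and the 5 most correlated with Insrr. Locations are from GENCODE M21. Pseudocount, filter, scaling, block, variance model and left-out libraries were varied. A few genes of the lists and neighbourhoods are counted but not reported here by name.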

Additional observations from a re-analysis of the deposited data

How the results depend on the processing

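The log2 difference of Insrr stayed within 1 SD of its value of 1.45 in 14 of 15 other settings; with the authors' DESeq2 offset, chosen after seeing the data, it was 1.87. That of Grb14 lay between -1.10 and -0.60, that of Irs2 between -0.58 and -0.04, and those of Insr, Igf2r and Irs1 lay on both sides of 0, at -0.38 to 0.20, -0.10 to 0.38 and -0.17 to 0.44. The number of genes called over the table, 148, became 93 with a mean of at least 5 TPM, 2761 with the column number as a replicate block, 2393 (2269 higher, 124 lower) with the DESeq2 offset and 688 without both libraries numbered 3, also chosen after seeing the data. Quantile normalization gave 28 higher and 93 lower. Leaving out 1 library gave 0 to 255 genes by limma; the 0 came without basal 1, basal 2 or induced 1, where 1400, 1130 and 1562 genes had an unadjusted p under 0.05. Of the members 2 were called; without a filter, after quantile normalization and after median ratio scaling 1 was (Insrr), and with 1 library left out 0 to 2. Of the other genes of the lists 4 were called, against 1 with a mean of at least 5 TPM, 2 after quantile normalization, 1 after median ratio scaling, 35 with the replicate block, 21 (19 higher, 2 lower) with the DESeq2 offset, 11 (all lower) without both libraries numbered 3 and 0 to 4 with 1 library left out. The cause of these shifts was not tested. TPM keep no depth, so the precision of members under 10 TPM rests on the spread between libraries alone.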
